A study of Mus musculus with 24 samples.

Results

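The expression of 10 genes that mobilise or coat stored fat was followed in cultured mouse fat cell precursors: the lipases *Pnpla2*, *Lipe* and *Mgll*, the lipase regulators *Abhd5* and *G0s2*, and the droplet coat genes *Plin1*, *Plin2*, *Plin4*, *Plin5* and *Cidec*. The members were the rows of the expression table that carry these symbols, and all 10 were found among 49452 genes. On GRCm38 the lipase genes lie at chr7:141455198-141460743 (*Pnpla2*), chr7:25379527-25398710 (*Lipe*) and chr6:88724412-88828360 (*Mgll*). The regulators lie at chr9:122351608-122381524 (*Abhd5*) and chr1:193272161-193273217 (*G0s2*), and the coat genes at chr7:79720218-79732903 (*Plin1*), chr4:86648386-86670060 (*Plin2*), chr17:56100591-56109803 (*Plin4*), chr17:56111601-56117596 (*Plin5*) and chr6:113424634-113435760 (*Cidec*), where *Plin4* and *Plin5* are neighbours. Precursors of the stromal vascular fraction came from interscapular brown adipose tissue (BAT) or perigonadal (epididymal) visceral white adipose tissue (vWAT) of male C57BL/6 mice aged 6 to 8 weeks, with tissue pooled where cells were scarce. They received by nucleofection either a non-targeting siRNA (siCtrl) or an siRNA against the long noncoding RNA *H19* (siH19), and were used 48 to 72 h after transfection. Poly-A RNA was sequenced before induction of adipogenesis (d0) and on day 3 of differentiation (d3). The induction cocktail held insulin, dexamethasone, rosiglitazone and IBMX, and for BAT indomethacin and triiodothyronine. It was replaced by medium with rosiglitazone for vWAT or triiodothyronine for BAT, so depot and medium cannot be told apart. The library identifiers begin with MB-3 for all BAT and MB-4 for all vWAT libraries. What this marks is not given, and it cannot be told apart from depot either. There were 3 libraries in each of 8 groups, 24 in all, and nothing in the labels says that the libraries of a group came from separate cultures or animals, so the p-values measure the spread between these libraries, which may be technical.

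Fat is stored as triglyceride inside lipid droplets and is released one fatty acid at a time. *Pnpla2* (ATGL) takes the first fatty acid, *Lipe* (hormone-sensitive lipase) the next, and *Mgll* (monoglyceride lipase) the last. ABHD5 activates ATGL, G0S2 inhibits it, and the perilipins and CIDEC at the droplet surface set how far lipases reach the fat, with catecholamines acting through cAMP and protein kinase A as the main signal for release. In brown fat the released fatty acids fuel heat production and activate the uncoupling protein.

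To show the DNA in front of the genes that the values below turn on, the 250 bases before the RefSeq start were read for the major lipase, its inhibitor, the coat gene with the largest difference after siH19 in BAT at d3 and the coat gene with the largest rise from d0 to d3 (RefSeq, GRCm38.p6). Capitals mark 4 short motifs on either strand: the GC box GGGCGG, the nuclear receptor half-site AGGTCA, the CCAAT box CCAAT and the E-box CACGTG.
Pnpla2, chr7:141454938-141455187, plus strand: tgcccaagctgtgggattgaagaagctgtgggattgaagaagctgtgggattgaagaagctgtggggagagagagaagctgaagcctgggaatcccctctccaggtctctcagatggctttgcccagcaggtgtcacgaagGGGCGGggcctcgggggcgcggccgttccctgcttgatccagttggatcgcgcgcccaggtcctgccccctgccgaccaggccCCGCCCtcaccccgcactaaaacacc
G0s2, chr1:193273189-193273438, minus strand: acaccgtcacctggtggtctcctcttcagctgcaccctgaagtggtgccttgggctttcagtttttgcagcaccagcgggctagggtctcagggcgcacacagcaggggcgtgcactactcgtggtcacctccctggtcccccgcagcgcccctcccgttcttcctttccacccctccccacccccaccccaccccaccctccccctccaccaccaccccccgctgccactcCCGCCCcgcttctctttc
Plin5, most upstream start, chr17:56117549-56117798, minus strand: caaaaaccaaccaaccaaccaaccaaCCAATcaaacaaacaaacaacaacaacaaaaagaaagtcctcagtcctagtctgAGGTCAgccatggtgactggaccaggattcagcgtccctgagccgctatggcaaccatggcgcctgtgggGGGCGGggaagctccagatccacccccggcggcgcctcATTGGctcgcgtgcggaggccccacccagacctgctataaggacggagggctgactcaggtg
Cidec, most upstream start, chr6:113435761-113436010, minus strand: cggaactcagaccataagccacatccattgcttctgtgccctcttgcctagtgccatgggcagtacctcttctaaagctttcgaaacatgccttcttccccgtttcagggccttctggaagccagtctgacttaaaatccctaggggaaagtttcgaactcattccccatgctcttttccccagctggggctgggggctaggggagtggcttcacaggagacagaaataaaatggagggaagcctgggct

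The *Cidec* window held none of the 4 motifs, and the *Plin5* window held 1 GC box, 1 half-site and 2 CCAAT boxes. Over the 10 genes and their 14 annotated starts, the GC box lay in 7 of the 14 windows (of *Pnpla2*, *Lipe*, *Mgll*, *Abhd5*, *G0s2* and *Plin5*) and in 32.7% of all 32851 windows of the same length. The half-site lay in 3 of the 14, of *Abhd5*, *Plin2* and *Plin5* (14.0% of all windows), the CCAAT box in 3, of *Plin2*, *Plin4* and *Plin5* (33.8%), and the E-box in 2, of *Lipe* and *Mgll* (6.02%). The full repeat of the half-site that PPARγ and RXR bind (AGGTCANAGGTCA) was found in 0 of the 14 windows, against 0.0335% of all windows. The cAMP response element TGACGTCA was found in 0 of the 14 as well (1.55% of all windows). So was the pattern TTGCNNCAA (1.74%), which is not a palindrome and is not read here as a C/EBP site. A match is a stretch of letters and not a bound site, and a window without one says nothing about the factor.

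Levels are given as FPKM, which divides the fragments of a gene by its transcript length and by the fragments mapped in that library and may be compared between genes. The table holds no read counts, so the depth is unknown. The smallest steps of the values put the libraries at 0.832 to 1.15 of their median depth, with BAT at 0.832 to 0.981 and vWAT at 1.02 to 1.15. Replicates of a group correlated at 0.974 to 0.981 across genes. *H19* itself checked the labels: siH19 libraries held 2.82 to 5.20 FPKM against 108 to 160 in siCtrl (BAT d0), 12.04 to 16.9 against 83.2 to 99.7 (BAT d3), 0.630 to 1.76 against 11.3 to 12.3 (vWAT d0) and 0.291 to 0.966 against 8.19 to 8.90 (vWAT d3). Of the adipocyte markers *Adipoq*, *Fabp4*, *Cebpa*, *Pparg*, *Retn* and *Lep*, only *Lep* stayed below 1 FPKM in every group. Of the brown fat cell markers *Ucp1*, *Cidea*, *Elovl3* and *Dio2*, 3 were below 1 FPKM in BAT at d0. In siCtrl BAT the sum of the 4 was 4.66 to 5.76 FPKM at d0 and 488 to 538 at d3. In siCtrl vWAT it was 14.2 to 18.0 at d0 and 118 to 133 at d3. *Elovl3* made up most of both d3 sums (means of 470.0 in BAT and 124.3 in vWAT). *Ucp1* and *Cidea* averaged 12.1 and 18.5 FPKM in siCtrl BAT at d3 and were below 1 FPKM in vWAT. Skeletal muscle markers were seen in BAT (19.2 to 61.0 FPKM summed over 4 genes) and were near 0 in vWAT, and mesothelial markers were highest in vWAT at d0 (47.1 to 56.8 summed over 3 genes).

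Differentiation raised every member in both depots. In siCtrl BAT cells the 10 genes together took 0.0783% ± 0.00419 of all FPKM at d0 and 1.49% ± 0.0183 at d3 (SD, n = 3), and in siCtrl vWAT cells 0.146% at d0 and 0.745% at d3. A gene was called when limma gave a Benjamini-Hochberg adjusted p under 0.05 over all genes tested and a fold change of at least 1.3 on log2(FPKM + 1). The added 1 shrinks the fold change of genes with few FPKM. By this rule 10 of 10 members rose in BAT siCtrl, where 29.9% of 13001 genes tested were called higher, and 10 of 10 rose in vWAT siCtrl, where 26.3% of 13368 were. The median log2 fold change of the members was 4.20 in BAT, against -0.10 over all genes tested, and 1.97 in vWAT, against 0.01. With siH19 all 10 also rose in each depot, with medians of 4.33 in BAT (background 30.8% called higher) and 2.52 in vWAT (background 28.2%). *Plin5* met the filter (1 FPKM in at least 3 libraries) only through d3, so its rise was bound to appear among the genes tested, and the other 9 met it at d0 as well. For each member and each of these 4 comparisons the 3 libraries of d3 lay above the 3 of d0. Such separation was not counted over all genes, of which many changed: with siCtrl 8471 of 13001 were called in either direction in BAT and 6720 of 13368 in vWAT.

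**Figure D1:**
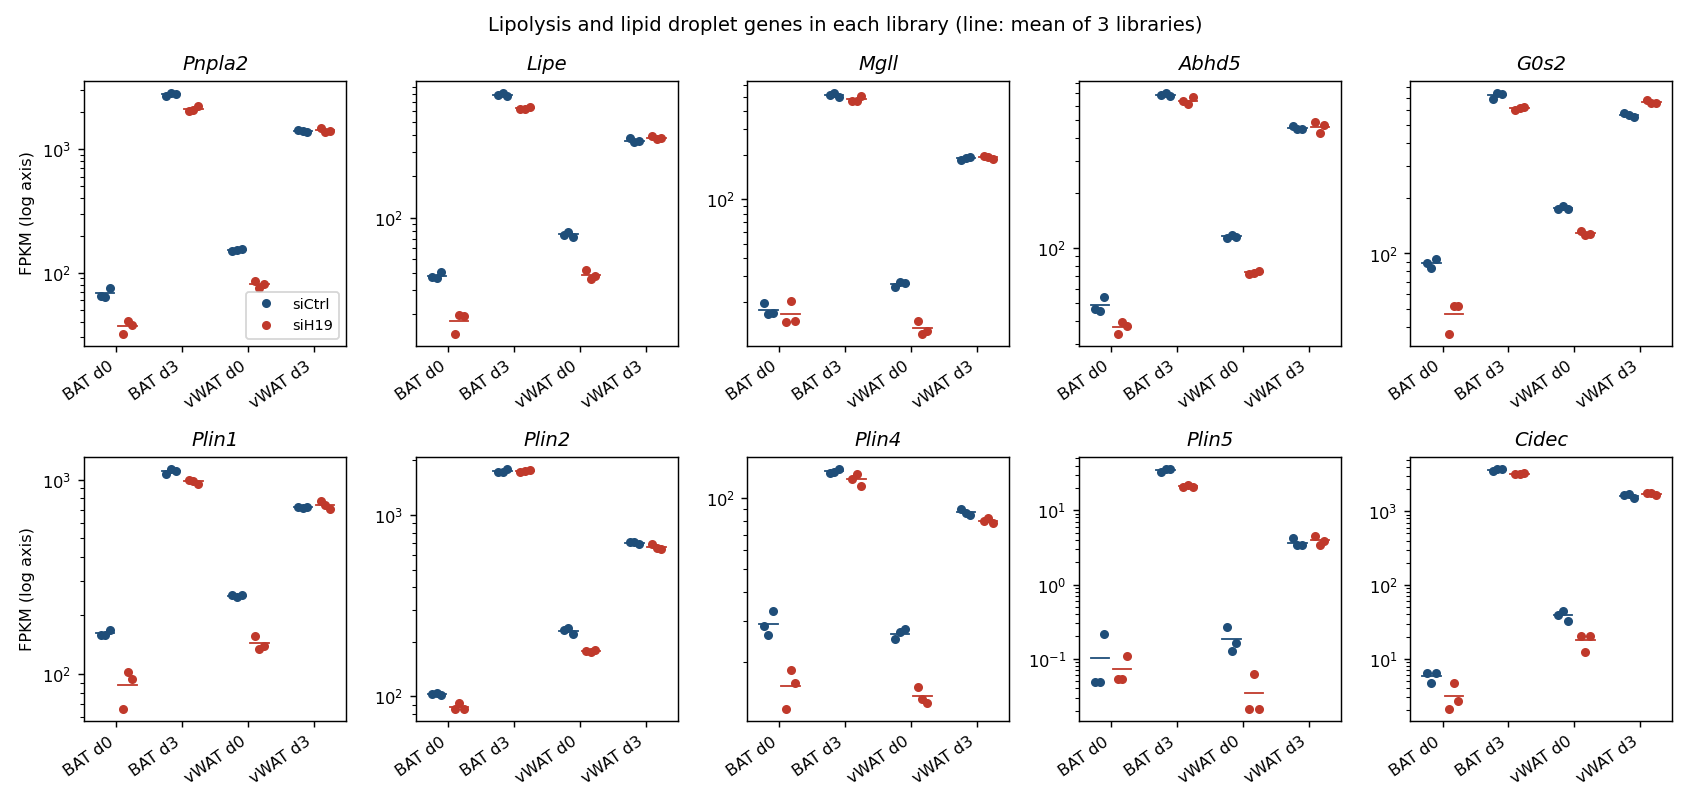
FPKM of each gene (log axis) in the 24 libraries, by depot and day, with siCtrl in blue and siH19 in red. Points are single libraries and lines are means of 3. In siCtrl cells 8 of the genes are lower in BAT than in vWAT at d0, all lie far above their d0 level at d3, and the siCtrl BAT d3 libraries are the highest or among the highest.

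*Pnpla2* measured 64.7, 63.4 and 76.0 FPKM in the siCtrl BAT libraries at d0 and 2674, 2844 and 2811 at d3. In vWAT it went from 149, 154 and 154 to 1430, 1402 and 1371. BAT therefore started below vWAT and ended above it, and the groups did not overlap at either day. *Lipe* went from 37.1, 36.5 and 40.3 to 780, 807 and 765 in BAT, and from 75.7, 79.5 and 72.3 to 378, 357 and 359 in vWAT. *Mgll*, the lowest of the 3 lipases in siCtrl cells, went from 19.7, 16.7 and 16.9 to 513, 530 and 495 in BAT. In vWAT its values were 25.5, 27.4 and 27.1 at d0 and 186, 192 and 193 at d3. The log2 rise of the lipases was 5.33 ± 0.0723 (SE) for *Pnpla2*, 4.33 ± 0.0480 for *Lipe* and 4.78 ± 0.0689 for *Mgll* in BAT, and 3.19, 2.25 and 2.79 in vWAT.

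The activator and the inhibitor of ATGL rose less than the lipase. *Abhd5* went from 46.5, 45.0 and 54.1 to 683, 702 and 673 FPKM in BAT and from 114, 118 and 115 to 464, 449 and 447 in vWAT. *G0s2* went from 88.9, 83.6 and 92.7 to 693, 745 and 740 in BAT and from 174, 181 and 175 to 579, 567 and 551 in vWAT. Within a library there were thus 1.22 to 1.37 *G0s2* FPKM per *Pnpla2* FPKM in siCtrl BAT at d0 and 0.259 to 0.263 at d3. The same ratio was 1.13 to 1.18 in vWAT at d0 and 0.402 to 0.405 at d3. The ratio of *Abhd5* to *Pnpla2* went from 0.709 to 0.718 at d0 down to 0.240 to 0.256 at d3 in BAT, and from 0.743 to 0.768 down to 0.320 to 0.326 in vWAT. Both regulators overlap genes of the other strand, *Abhd5* by 950 bases with A730085K08Rik (up to 77.2 FPKM) and *G0s2* along its whole length with *Lamb3* (up to 3.23 FPKM). *Lipe* lies wholly within 4732471J01Rik on the other strand (up to 6.43 FPKM). Whether strand was used in counting is not given in the sources used here, so the levels of these genes carry that uncertainty.

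**Figure D2:**
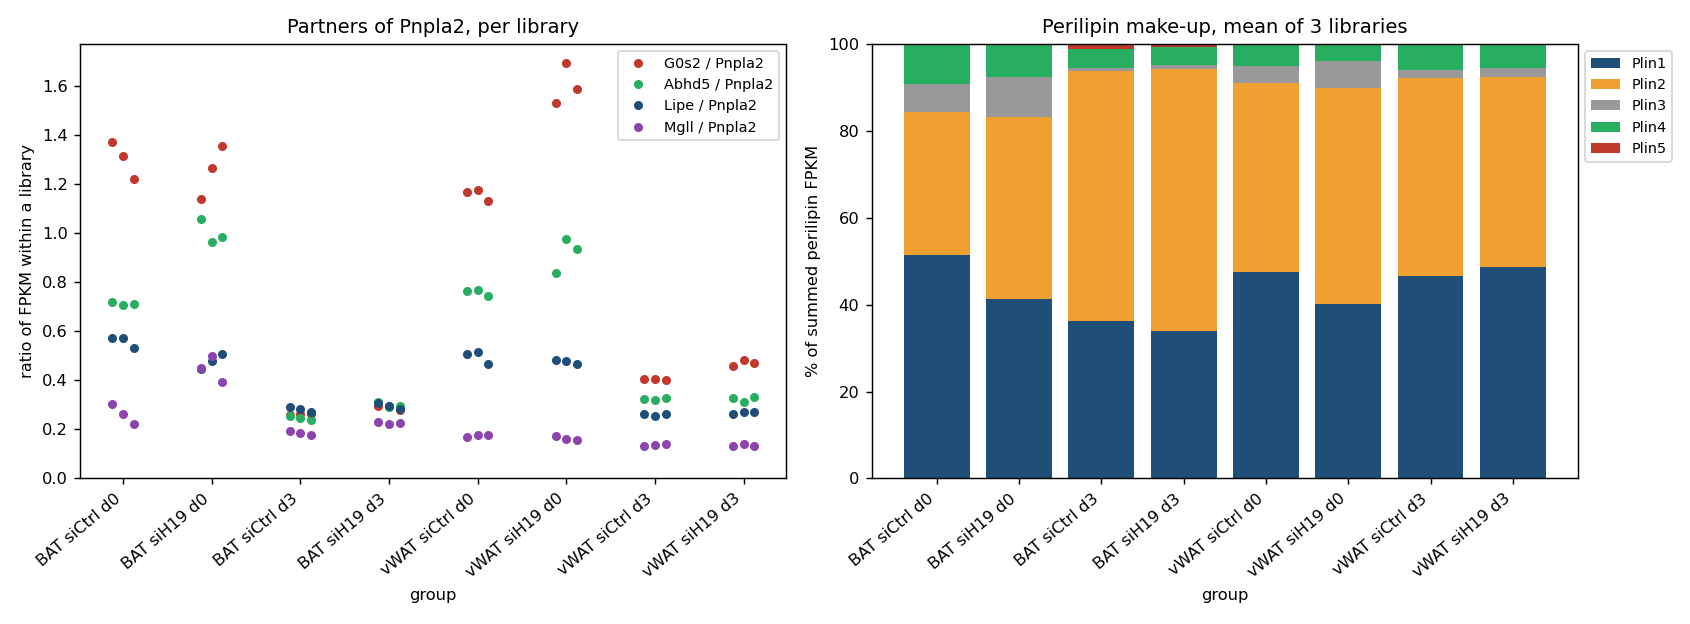
Left, FPKM of *G0s2*, *Abhd5*, *Lipe* and *Mgll* divided by that of *Pnpla2* in each library of the 8 groups. Right, mean share of each perilipin in the summed perilipin FPKM (3 libraries a group). The *G0s2* ratio is above 1.1 in all d0 libraries and below 0.5 in all d3 libraries, and *Plin2* holds the largest share in BAT at d3.

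The coat genes changed in make-up as well as in level. *Plin1*, which guards droplets of fat cells and releases ABHD5 when phosphorylated, went from 159, 158 and 169 to 1073, 1137 and 1107 FPKM in siCtrl BAT and from 255, 248 and 255 to 727, 718 and 719 in vWAT. *Plin2*, the perilipin found in most cell types, went from 103, 105 and 102 to 1723, 1737 and 1798 in BAT, and from 233, 237 and 220 to 706, 711 and 689 in vWAT. The log2 rise of *Plin2* in BAT (4.07 ± 0.0315) was larger than that of *Plin1* (2.77 ± 0.0405), while in vWAT they were 1.61 ± 0.0384 and 1.51 ± 0.0287. As a share of the summed FPKM of the 5 perilipins, *Plin1* went from 51.5% ± 0.653 to 36.3% ± 0.736 in BAT and *Plin2* from 32.9% ± 1.18 to 57.5% ± 0.704 (SD, n = 3). In vWAT the shares hardly moved, *Plin1* from 47.6% to 46.7% and *Plin2* from 43.3% to 45.5%. With siH19 at d0, *Plin2* made up 42.0% in BAT and 49.8% in vWAT, although its own level was lower than with siCtrl. Its means were 87.4 against 103 FPKM in BAT and 178 against 230 in vWAT, and those of *Plin1* 87.1 against 162 and 144 against 253. These shares are descriptions and were not tested.

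*Plin4*, which coats small and newly formed droplets, had the smallest rise in BAT, from 28.5, 26.2 and 33.0 to 128, 130 and 134 FPKM, a log2 change of 2.13 ± 0.0821. In vWAT it went from 25.1, 26.8 and 27.6 to 90.2, 86.1 and 84.9. *Plin5*, the perilipin of oxidative tissues that links droplets to mitochondria, was below 1 FPKM in every d0 library (0.0209 to 0.271). At d3 it measured 32.6, 35.5 and 36.2 in siCtrl BAT and 4.22, 3.36 and 3.44 in vWAT. *Cidec* (FSP27), which fuses droplets into larger ones, showed the largest rise, from 6.44, 4.68 and 6.39 to 3457, 3686 and 3755 in BAT and from 39.1, 44.5 and 32.3 to 1637, 1702 and 1520 in vWAT. There were 0.0296 to 0.0406 *Cidec* FPKM per *Plin1* FPKM in BAT at d0 and 3.22 to 3.39 at d3.

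Between the depots, the members were lower in BAT before induction and higher in BAT afterwards. At d0 8 of the 9 members tested were called lower in BAT than in vWAT with siCtrl, where 21.0% of 13139 genes were. The log2 differences ran from -2.54 (*Cidec*) to -0.56 (*Mgll*), *Plin4* differed by 0.13 ± 0.0893 with overlapping libraries (adjusted p = 0.27, limma), and *Plin5* was too low to be tested. At d3 9 of 10 were called higher in BAT (background 16.5% of 13120 genes), from 0.58 (*Plin4*) to 2.94 (*Plin5*). *G0s2* differed by 0.36 ± 0.0398 (adjusted p = 0.00026, limma), below the fold change required, although its BAT libraries all lay above the vWAT ones. Scaling by the median ratio of genes moved the median difference of all genes by 0.13 at d0 and 0.16 at d3, changed the share of calls that were higher in BAT from 32.8% to 49.3% at d0 and from 33.9% to 48.5% at d3, and left all these member calls in place while adding *G0s2* (0.53). *G0s2* was also called without BAT siCtrl replicate 1 (0.39). The rise from d0 to d3 was larger in BAT for the 9 members other than *Plin5*, with interaction terms from 0.45 (*Plin4*) to 3.70 (*Cidec*) and adjusted p from 1.3e-10 to 0.0034 (limma, 12 libraries, no minimum fold change, background 24.9% of 14111 genes). For *Plin5*, below 1 FPKM in both depots at d0, the term of 3.04 restates the depot difference at d3 (2.94). In siCtrl cells the order of levels was therefore BAT d3, vWAT d3, vWAT d0 and BAT d0 for 8 members, with *Plin4* indistinguishable between depots at d0 and *Plin5* near 0 in both.

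**Figure D3:**
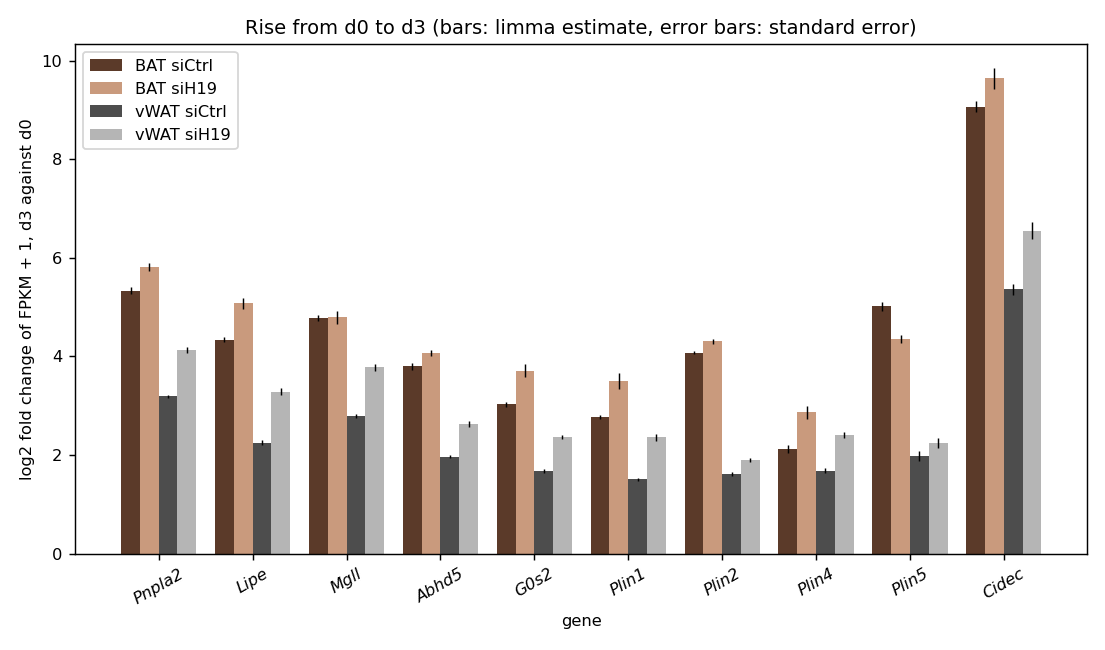
Log2 fold change of FPKM + 1 from d0 to d3 for each gene in the 4 combinations of depot and siRNA, as the limma estimate with its standard error (3 libraries a group). With the same siRNA the BAT bar exceeds the vWAT bar for every gene, and *Cidec* stands highest, at 9.06 in BAT siCtrl and 5.36 in vWAT siCtrl.

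At d3 in BAT, siH19 lowered *Plin5* and *Pnpla2*. *Plin5* measured 20.4, 21.6 and 20.7 FPKM with siH19 against 32.6, 35.5 and 36.2 with siCtrl, which is 60.1% of the siCtrl mean. Its log2 fold change was -0.71 ± 0.0599 (adjusted p = 0.002, limma), and the call held in every fit that left out 1 library. *Pnpla2* measured 2030, 2094 and 2255 against 2674, 2844 and 2811, 76.6% of the siCtrl mean, with a log2 fold change of -0.39 ± 0.0482 (adjusted p = 0.0051). This is close to the fold change required, and the *Pnpla2* call was lost without siH19 replicate 1 (-0.35), siH19 replicate 2 (-0.38), siCtrl replicate 2 (-0.37) or siCtrl replicate 3 (-0.38), in each case on size and with adjusted p between 0.019 and 0.026. The members called lower were thus 2 of 10, against 2.18% of 12500 genes, and 1 of 10 in those 4 fits.

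A further 4 members were past the adjusted p but under 1.3-fold: *Lipe* (-0.32, 80.0% of siCtrl, adjusted p = 0.0031), *G0s2* (-0.24, 84.7%, 0.011), *Cidec* (-0.19, 87.7%, 0.024) and *Plin1* (-0.18, 88.5%, 0.023), all by limma. On adjusted p alone 6 of 10 members were lower, against 5.61% of all genes tested. They were 7 with median-ratio scaling. With no filter on low values they were 4, where *Plin1* (0.068) and *Cidec* (0.12) were lost, and 4 with 1 fit over 24 libraries (adjusted p of 0.22 and 0.51, limma). *Plin1* was also lost without siH19 replicate 2 or 3 or siCtrl replicate 2 or 3, and *Cidec* without siH19 replicate 1 or 2 or siCtrl replicate 2 or 3. *Lipe* held 622, 623 and 638 FPKM with siH19 against 780, 807 and 765, *G0s2* held 602, 615 and 626 against 693, 745 and 740, and the groups did not overlap in either. *Abhd5* differed by -0.11 (95% interval -0.21 to -0.01, adjusted p = 0.13), *Plin4* by -0.12 (-0.24 to 0.00, adjusted p = 0.17), *Mgll* by -0.09 (-0.21 to 0.02, adjusted p = 0.25) and *Plin2* by -0.01 (-0.08 to 0.06, adjusted p = 0.88). *Plin2*, at 1718, 1744 and 1763 against 1723, 1737 and 1798, had the smallest difference of the 10. All libraries with siH19 lay below all with siCtrl for 8 members, the exceptions being *Mgll* and *Plin2*, and for 13.1% of all genes tested. The median over the members was -0.18 against 0.05 over all genes, and with median-ratio scaling the share of all calls that were higher fell from 74.6% to 58.8%.

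**Figure D4:**
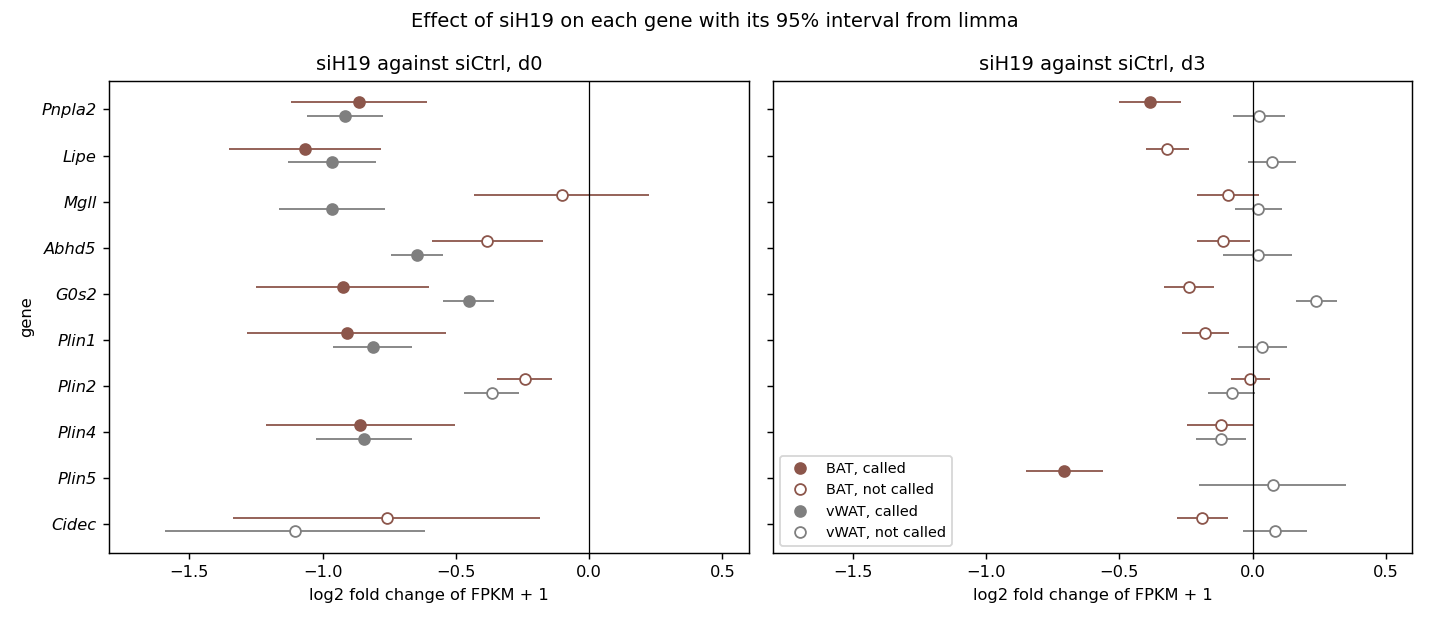
Log2 fold change of FPKM + 1, siH19 against siCtrl, for each gene at d0 (left) and d3 (right), with 95% intervals from limma (3 libraries a group). Brown points are BAT and grey points vWAT, filled where called and open where not, and *Plin5* at d0 is too low to show. At d0 both depots lie left of 0, and at d3 the BAT points lie left of 0 and the vWAT points around it.

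Sums of cell markers moved with this comparison. With siH19 at d3 in BAT the summed adipocyte markers were 27098 to 29386 FPKM against 29723 to 31110, precursor markers (5 genes, among them *Pdgfra* and *Ly6a*) 610 to 673 against 368 to 411, brown markers 290 to 345 against 488 to 538, and macrophage markers (6 genes) 79.2 to 90.5 against 126 to 158. Their part in the differences was not tested, and in bulk RNA fewer fat cells and less of these transcripts per cell cannot be told apart.

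In vWAT at d3 limma called 0 of 10 members, against a background of 0.00764% of 13097 genes called higher and 0.0229% called lower. At an unadjusted p under 0.05 by limma were 2 members, and 1315 of all genes tested. *G0s2* held 684, 661 and 659 FPKM with siH19 against 579, 567 and 551, a log2 difference of 0.24 (95% interval 0.16 to 0.32, adjusted p = 0.16), and its groups did not overlap. *Plin4* held 79.7, 82.0 and 78.7 against 90.2, 86.1 and 84.9 (-0.12, interval -0.21 to -0.02, adjusted p = 0.42), again without overlap. *Pnpla2* held 1498, 1372 and 1403 against 1430, 1402 and 1371 (0.02, interval -0.07 to 0.12) and *Plin5* 4.47, 3.45 and 3.86 against 4.22, 3.36 and 3.44 (0.08, interval -0.20 to 0.35). Among all genes, 7.67% had every siH19 library above every siCtrl library and 8.57% below, so 1 member in each direction is near the background. Adipocyte markers summed to 17238 to 18326 FPKM with siH19 and 15568 to 16390 with siCtrl.

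The effect of siH19 at d3 itself differed between the depots for 6 members, all more negative in BAT, where 3.52% of 13762 genes were called in that direction (limma interaction, 12 libraries). Median-ratio scaling changed the share of all calls that were positive from 66.6% to 43.8% and left these 6 in place. The differences of the log2 effects were -0.78 for *Plin5* (adjusted p = 0.0047), -0.48 for *G0s2* (0.0014), -0.41 for *Pnpla2* (0.0041) and -0.39 for *Lipe* (0.0016). *Cidec* (-0.27, adjusted p = 0.026) and *Plin1* (-0.21, adjusted p = 0.027) were less certain. *Cidec* was lost without BAT siH19 replicate 1 or 2, BAT siCtrl replicate 2 or 3, or vWAT siH19 replicate 1 or 2 (-0.27 to -0.25). *Plin1* was lost without BAT siH19 replicate 3, BAT siCtrl replicate 2 or 3, vWAT siH19 replicate 1 or 2, or vWAT siCtrl replicate 2 or 3 (-0.21 to -0.18). With 1 fit over all 24 libraries their adjusted p was 0.56 and 0.38. *Mgll*, *Abhd5*, *Plin2* and *Plin4* were not called.

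Before induction, at d0, siH19 lowered most of the members in both depots. In vWAT 7 of the 9 members tested were called lower, against 1.2% of 13063 genes, and in all 9 the siH19 libraries lay below the siCtrl libraries, against 16.2% of all genes. *Pnpla2* held 86.4, 74.7 and 80.5 FPKM with siH19 against 149, 154 and 154 (52.8% of siCtrl, log2 -0.92 ± 0.0593, adjusted p = 0.0045, limma). *Lipe* held 41.8, 35.9 and 37.7 against 75.7, 79.5 and 72.3 (-0.96), and *Mgll* 14.8, 12.2 and 12.7 against 25.5, 27.4 and 27.1 (-0.96). *Abhd5* held 72.3, 73.0 and 75.2 against 114, 118 and 115 (-0.65), and *G0s2* 132, 127 and 128 against 174, 181 and 175 (-0.45). The estimate for the inhibitor was thus smaller than that for the lipase, and the ratio of *G0s2* to *Pnpla2* was 1.53 to 1.69 with siH19 against 1.13 to 1.18. The ratio of the activator *Abhd5* to *Pnpla2* was higher as well, at 0.837 to 0.9775 against 0.743 to 0.768. In BAT at d0 the *G0s2* ratio overlapped (1.14 to 1.36 against 1.22 to 1.37), and that of *Abhd5* was 0.964 to 1.06 against 0.709 to 0.718. *Plin1* (157, 135 and 140 against 255, 248 and 255, -0.81) and *Plin4* (15.7, 13.9 and 13.4 against 25.1, 26.8 and 27.6, -0.84) were also called. *Plin2* (-0.37, adjusted p = 0.015) was under 1.3-fold, and *Cidec*, at 20.5, 12.5 and 20.2 against 39.1, 44.5 and 32.3, missed the threshold (-1.10 ± 0.204, adjusted p = 0.053). These 7 calls held in every fit without 1 library, and *Plin2* joined them without siCtrl replicate 3 (-0.40).

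In BAT at d0 the median estimate was of like size (-0.86 against -0.84 in vWAT), but the calls were less certain. Single genes differed, most of all *Mgll* (-0.10 in BAT against -0.96 in vWAT) and *G0s2* (-0.92 against -0.45). The calls were 5 of 9, against 1.32% of 12651 genes: *Lipe* (14.4, 19.6 and 19.3 FPKM against 37.1, 36.5 and 40.3, log2 -1.06, adjusted p = 0.021), *G0s2* (36.6, 51.8 and 51.5 against 88.9, 83.6 and 92.7, -0.92, 0.028), *Plin1* (65.6, 102 and 93.9 against 159, 158 and 169, -0.91, 0.039), *Pnpla2* (32.2, 40.9 and 37.9 against 64.7, 63.4 and 76.0, -0.86, 0.025) and *Plin4* (12.6, 18.5 and 16.3 against 28.5, 26.2 and 33.0, -0.86, 0.039), by limma. The siH19 library of replicate 1 was the lowest of its group in each of these 5. *Plin2* (-0.24, adjusted p = 0.043), *Abhd5* (-0.38, 0.074) and *Cidec* (-0.76, 0.15) were not called, and *Mgll*, at 14.6, 20.4 and 14.9 against 19.7, 16.7 and 16.9, overlapped between the groups (-0.10, interval -0.43 to 0.23). The siH19 libraries lay below all siCtrl libraries in 8 of 9 members and in 16.1% of all genes. The 5 calls became 2 without siH19 replicate 2, 4 without siH19 replicate 1, and 0 without siH19 replicate 3 or any 1 of the 3 siCtrl replicates, with log2 fold changes between -1.14 and -0.71 and adjusted p of at most 0.13. They were also 0 with no filter on low values, where the adjusted p lay between 0.057 and 0.099.

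Adipocyte markers moved in the same direction as the members in both depots. At d0 the adipocyte markers summed to 1053 to 1449 FPKM with siH19 and 2321 to 2505 with siCtrl in BAT, and to 1702 to 1936 and 3046 to 3083 in vWAT. Precursor markers were 1242 to 1262 against 1103 to 1229 in BAT and 592 to 702 against 559 to 614 in vWAT, with overlap in vWAT. *Ly6a* made up the higher sums (means of 644.5 against 543.1 in BAT and 399.3 against 321.2 in vWAT), while *Thy1* was at 506.0 against 529.9 in BAT and 71.0 against 86.3 in vWAT. Macrophage markers were 98.6 to 98.96 against 129 to 162 in BAT and overlapped in vWAT, at 272 to 298 against 276 to 308. *Lyz2* made up most of the BAT macrophage sums (means of 77.6 against 121.4). There *Adgre1* and *Cd68* were lower too, while *Csf1r* overlapped. The part of these cells in the fall of the members was not tested. With median-ratio scaling the share of calls that were higher went from 31.8% to 41.8% in BAT and from 21.5% to 32.3% in vWAT, and the member calls stayed 5 and 7.

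Tests of the difference between the days gave positive terms, meaning a less negative siH19 effect at d3 than at d0. In vWAT this held for 9 of 10 members (background 1.46% of 13948 genes called in that direction), from 0.29 for *Plin2* to 1.19 for *Cidec*. *Plin5* (0.27, adjusted p = 0.47) was the exception. The calls of *Plin2* (0.26 to 0.32) and *Cidec* (0.97 to 1.31) were each lost in 8 of the 12 fits without 1 library. In BAT 6 members were called positive (background 7.79% of 13575 genes), from 0.23 for *Plin2* to 0.74 for *Lipe*, and *Plin5* was called negative (-0.67, adjusted p = 0.0046, background 1.27%). With *Plin5* near 0 at d0 this term restates its d3 difference, where siH19 held 60.1% of the siCtrl mean. At d0 its BAT libraries overlapped, at 0.0542, 0.0527 and 0.110 FPKM with siH19 against 0.0488, 0.0494 and 0.214, so no effect can be read there. Without 1 library, *Pnpla2* was lost in 10 of 12 fits (0.38 to 0.55), *Plin1* in 8 (0.54 to 0.86), *Plin4* in 3 and *G0s2* in 1. With a pseudocount of 0.1 the *Plin5* term was -0.57 (adjusted p = 0.39). With median-ratio scaling only *Lipe* and *Plin5* were still called in BAT, and the share of all calls that were higher went from 86.0% to 57.8%. The siH19 effect at d0 differed between the depots for *Mgll* alone (0.86, adjusted p = 0.047, background 0.452% of 13708 genes), and this call was lost in each of the 12 fits without 1 library.

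Beyond the members, 6 lists of genes of the same pathway were read at d3 in BAT with siH19. Over all genes tested 2.18% were called lower and 6.39% higher. Of 14 other droplet proteins tested, 2 were called lower and 2 higher: *Cidea*, which enlarges droplets in brown fat cells (log2 -1.95 ± 0.158, adjusted p = 0.002), and *Pnpla3*, a droplet protein related to ATGL (-0.75), were lower, and *Hsd17b11* (0.47) and *Hilpda*, an ATGL inhibitor induced by hypoxia (0.40, adjusted p = 0.047), were higher. *Hilpda* was no longer called with median-ratio scaling, with no filter on low values, or without siH19 replicate 1 or 3 or any 1 of the siCtrl replicates. Of 9 other lipases and esterases 2 were lower, *Ces1d* (-0.50) and *Ddhd2* (-0.38, a phospholipase), and 0 higher. *Ces1d* was lost without siCtrl replicate 2 (-0.47) and with 1 fit over 24 libraries (adjusted p = 0.14, limma), and *Ddhd2* without siH19 replicate 1 (-0.36) or siCtrl replicate 1 (-0.34). Of 13 genes of cAMP signalling, protein kinase A and related receptors 2 were lower, the β3-adrenergic receptor *Adrb3* (-0.52) and the natriuretic peptide receptor *Npr1* (-0.69). Of 9 anti-lipolytic genes limma called 0, with 3 at an unadjusted p under 0.05, where 3913 of all 12500 genes tested were. Of 8 genes that handle the released fatty acids and glycerol 2 were lower, the fatty acid transporter *Slc27a1* (-0.65) and the binding protein *Fabp5* (-0.43). Of 11 transcription factors and coactivators 3 were lower, *Ppara* (-0.92), *Ppargc1a* (-0.81) and *Srebf1* (-0.43). List medians lay between -0.21 and -0.05, against -0.18 for the 10 members and 0.05 for all genes. In vWAT at d3 limma called 0 of the 64 list genes tested, with 10 at an unadjusted p under 0.05, where 1315 of all 13097 genes tested were.

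**Figure D5:**
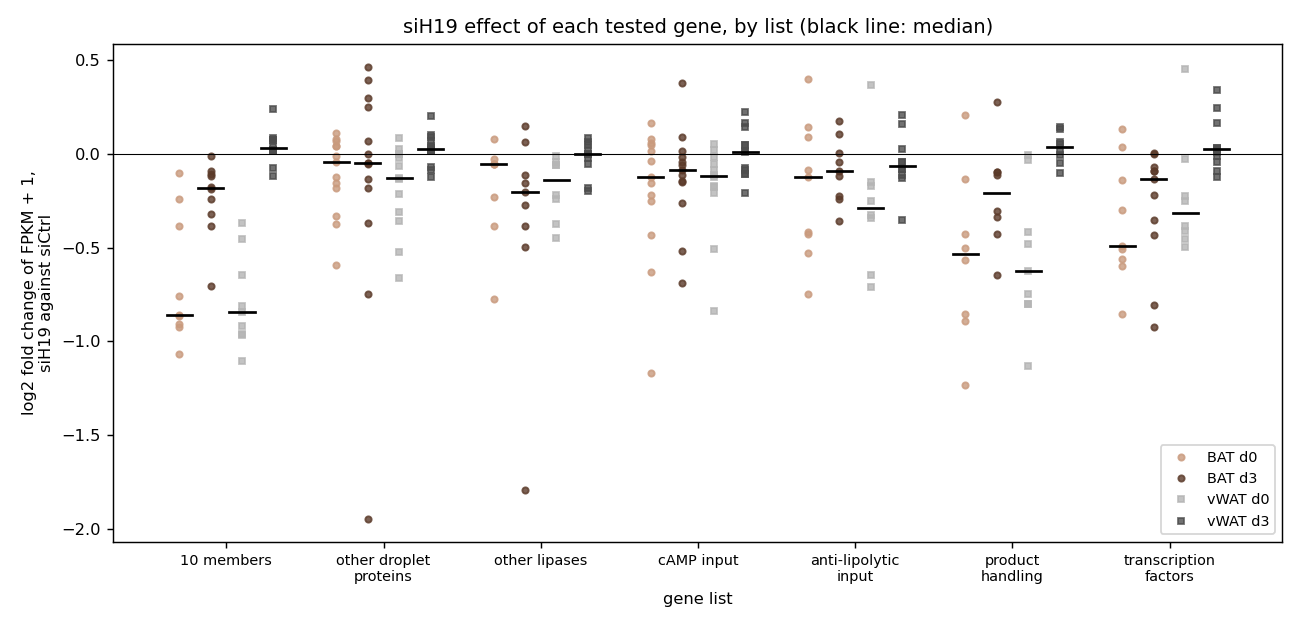
Log2 fold change of FPKM + 1, siH19 against siCtrl, of each tested gene by list, with BAT as circles and vWAT as squares, d0 in light and d3 in dark shades (3 libraries a group). Black lines are medians: those of the 10 members are -0.86 and -0.84 at d0 in BAT and vWAT, and -0.18 and 0.03 at d3.

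At d0, of the genes of fatty acid handling, 4 of 8 in BAT and 5 of 9 in vWAT were called lower with siH19 and 0 higher, against 1.32% and 1.2% of all genes called lower. The other estimates ran up to 0.21 in BAT and -0.01 in vWAT. *Acsl1*, which activates fatty acids, changed by -1.23 in BAT and -1.13 in vWAT, and the binding protein *Fabp4* by -0.89 and -0.80. Fewer genes were called lower in most other lists, and 0 higher. These were 1 of 13 cAMP signalling genes in BAT and 2 of 12 in vWAT, and 1 of 13 and 2 of 13 other droplet proteins. Other lipases gave 0 of 8 in both, and transcription factors 3 of 9 and 3 of 8. *Adrb3* fell by 1.17 on the log2 scale in BAT and by 0.84 in vWAT. The adipogenic factors *Cebpa* (-0.85 and -0.41) and *Pparg* (-0.60 and -0.46) fell in both. Like *Fabp4*, these 2 factors are among the adipocyte markers above. *Pde3b*, which degrades cAMP when insulin acts, was called in vWAT, where it fell by 0.71. In BAT it was not called, although its mean was 3.80 FPKM with siH19 and 6.90 with siCtrl. The 1 anti-lipolytic gene called in BAT was *Irs2*, and its call was lost in all 6 fits without 1 library (-0.60 to -0.47). In BAT the calls of *Acsl1*, *Fabp4*, *Adrb3*, *Cebpa* and *Pparg* were each lost in 2 to 5 of the 6 fits without 1 library. In vWAT those of *Acsl1* and *Fabp4* were not lost in any, and those of *Adrb3*, *Cebpa*, *Pparg* and *Pde3b* were lost in 4 or 5. In both depots the members had the lowest median of the lists (-0.86 in BAT and -0.84 in vWAT, against -0.53 and -0.63 for fatty acid handling).

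Across the 24 libraries the members followed each other closely, and since all libraries share the large step from d0 to d3 the correlations describe that step above all. The correlation of log2(FPKM + 1) with the mean of the members ran from 0.937 (*Plin5*) to 0.998 (*Lipe*). The closest pair was *Abhd5* and *Cidec* (0.998) and the loosest *G0s2* and *Plin5* (0.842). Of 10049 genes ranked, those most like the mean of the members were *Pde3b* (0.999), *Scp2*, *Pcx*, *Abhd15* and *Fitm2* (0.998 for the last of the 5). *Pde3b* averaged 6.90 and 3.80 FPKM in BAT at d0 with siCtrl and siH19 and 167 and 141 at d3, and in vWAT 12.01, 6.93, 69.9 and 78.2.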

How the data were processed

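RNA-seq was available for 24 libraries, 3 in each of 8 groups of depot, siRNA and day. The authors aligned reads to GRCm38 with Tophat2 2.0.10 and quantified Ensembl 87 genes with Cufflinks 2.1.1 in QuickNGS 1.2.7 (2.2.1 per the submitters' processing notes, which also name STAR). The deposited values are FPKM per gene and library; the header names no unit. Read length and pairing differ between the labels and the methods. Counts were not used here, so depth is known only relative to other libraries. Of 49452 genes, 20695 carried a symbol and 28503 were named from a gene table; *H19* was matched by its identifier.

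From these values limma 3.58.1 (R 4.3.3, trended eBayes) was run on log2(FPKM + 1), each comparison on its own 6 libraries and each interaction on 12, with genes at 1 FPKM or more in at least 3 libraries and Benjamini-Hochberg adjustment. Calls needed adjusted p under 0.05 and 1.3-fold (interactions: adjusted p only). The fits were checked on simulated data. Alternatives were a pseudocount of 0.1, no filter, median-ratio scaling, 1 fit over 24 libraries, a replicate block, no minimum fold change and leaving out each library. Members were all named, with at most 4 called genes by size from each list. Members, lists and tests were chosen with earlier results of these data known.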

Additional observations from a re-analysis of the deposited data

Results flagged for a closer look

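Interaction terms past the threshold are given where the effect of siRNA or day differed between groups (limma, adjusted p over all genes tested, differences of log2 fold changes, 3 libraries a group). For siH19 at d3, BAT minus vWAT, they were -0.41 for *Pnpla2*, -0.39 for *Lipe*, -0.48 for *G0s2*, -0.21 for *Plin1*, -0.78 for *Plin5* and -0.27 for *Cidec*. At d0 the only such member was *Mgll*, at 0.86 (adjusted p = 0.047), with siH19 means of 93.5% of siCtrl in BAT and 49.6% in vWAT.

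For siH19 in BAT, d3 minus d0, the terms were 0.48 for *Pnpla2*, 0.74 for *Lipe*, 0.69 for *G0s2*, 0.73 for *Plin1*, 0.23 for *Plin2*, 0.74 for *Plin4* and -0.67 for *Plin5*. *Plin5* was near 0 at d0, so its terms restate d3 differences, and with a pseudocount of 0.1 this one had an adjusted p of 0.39. In vWAT they were 0.94 for *Pnpla2*, 1.03 for *Lipe*, 0.99 for *Mgll*, 0.67 for *Abhd5*, 0.69 for *G0s2*, 0.85 for *Plin1*, 0.29 for *Plin2*, 0.73 for *Plin4* and 1.19 for *Cidec*.

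For differentiation of siCtrl cells, the rise in BAT minus that in vWAT was 2.14 for *Pnpla2*, 2.08 for *Lipe*, 1.99 for *Mgll*, 1.84 for *Abhd5*, 1.35 for *G0s2*, 1.26 for *Plin1*, 2.46 for *Plin2*, 0.45 for *Plin4*, 3.04 for *Plin5* (a restatement of its d3 depot difference) and 3.70 for *Cidec*. The depots received different media for differentiation and their libraries carry separate identifier series, neither of which can be told apart from depot here.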

How the results depend on the processing

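Of 1985 repeats of single member results under the alternatives, 1819 kept direction and call, 125 lost the call, 16 gained it and 25 changed sign, each of the latter uncalled in both fits. The member counts of the d3 against d0 comparisons (9 or 10 of 10) and of the depot comparisons (8 at d0, 9 or 10 at d3) stayed within 1.5 times under every alternative. *Plin5* could not be fitted against d0 when a d3 library was left out. For the list genes named, in 35 results, 139 of 417 repeats lost the call.

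Members called, against 2 in BAT d3: 6 with no minimum fold change, 1 to 2 without 1 library. Against 5 in BAT d0: 0 with no filter and 0 with the replicate block, 0 to 4 without 1 library. Against 7 in vWAT d0: 0 with the block, 7 to 8 without 1 library. Depot by siRNA at d0, against 1: 0 with no filter, 2 with 1 fit over 24 libraries, 0 with the block, 0 to 0 without 1 library. Day by siRNA in BAT, against 7: 4 with no filter, 2 with median-ratio scaling, 3 to 8 without 1 library. The cause was not tested.

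Median-ratio scaling turned depot by siRNA at d3 for *Plin2* (-0.011) and day by siRNA in BAT for *Mgll* (-0.105). Leaving out 1 library gave ranges across 0 for *Plin2* in BAT d3 (-0.0211 to 0.00979), for *Pnpla2* (-0.0138 to 0.0495), *Abhd5* (-0.0249 to 0.0745) and *Plin5* (-0.00258 to 0.158) in vWAT d3, and for these interactions: depot by siRNA at d3, *Plin4* (-0.0442 to 0.0413), and at d0, *Pnpla2* (-0.0226 to 0.146), *Lipe* (-0.175 to 0.033), *Plin1* (-0.222 to 0.0911) and *Plin4* (-0.132 to 0.13), and day by siRNA in BAT, *Mgll* (-0.0716 to 0.158).

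Replicate numbers were not taken to pair libraries: same-numbered deviations correlated at -0.143 to 0.088 over 30 pairs. With the block the adjusted p of the lost calls was 0.076 to 0.1 in BAT d0 and 0.053 to 0.069 in vWAT d0, 23 of 35 list gene calls were lost, and so was the *Cidec* day by siRNA call in vWAT (0.075).

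All genes called, where they moved over 1.5 times: BAT d3 1071, 2023 with no minimum fold change; vWAT d3 4, 20 with 1 fit, 0 with the block; BAT d0 245, 35 with no filter, 518 with 1 fit, 2 with the block, 395 with no minimum; vWAT d0 200, 65, 385 and 2 for the first 3; BAT against vWAT d0 4096, 6386 with no minimum; depot by siRNA d0 140, 85, 305 and 81 likewise. Leaving out 1 library gave as few as 631 in BAT d3 (without siCtrl replicate 2), 1 in vWAT d3, 4 in BAT d0 (74 at most), 37 in vWAT d0 (122 at most), 889 for depot by siRNA at d3, 35 at d0, 801 for day by siRNA in BAT and 127 in vWAT. Without counts, depth cannot be turned into an error for low genes such as *Plin5* at d0.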

Other observations

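In siCtrl cells many genes of the wider lists also rose with differentiation, where 29.9% of all genes tested were called higher in BAT and 26.3% in vWAT. Of the genes that handle released fatty acids and glycerol, 7 of 8 tested rose in BAT and 7 of 8 in vWAT, with 1 lower in each, and the list medians were 3.94 and 2.40 on the log2 scale. Of the transcription factors and coactivators, 10 of 12 rose in BAT and 9 of 11 in vWAT (medians of 1.93 and 1.05), and of the other lipases and esterases 8 of 9 and 9 of 10 (2.28 and 1.13). The anti-lipolytic genes rose in 7 of 9 and 6 of 10 (1.67 and 0.60). The lowest medians were those of the cAMP signalling genes (8 of 14 and 5 of 12, medians 0.53 and 0.26) and the other droplet proteins (7 of 14 and 7 of 13, medians 0.57 and 0.41). The members had 4.20 and 1.97, and all genes tested -0.10 and 0.01. Calls used the limma rule of the report.

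Among the genes whose pattern was most like that of the members, *Pcx* (pyruvate carboxylase) averaged 24.7 FPKM in siCtrl BAT at d0 and 617.5 at d3, against 13.5 and 474.9 with siH19. In vWAT its means were 41.6 and 295.9 with siCtrl, and 22.5 and 288.4 with siH19.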
